A study of Homo sapiens with 4 samples.

Results

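TBL2, UPP1, NAT9, ANTXR1, ARHGEF18 and PANK2 are 6 human genes whose transcripts have served as endogenous reporters of nonsense-mediated RNA decay (NMD) in human cell studies and that stand outside the classic stress response. They were found by gene symbol, and all 6 were among the 15942 genes of the deposited table and passed the filter on low counts. The RNA came from H9 cells, an established line of human embryonic stem cells grown on Matrigel in E8 medium. Cells of the control group carried an siRNA against luciferase (siLuc, 2 libraries), which has no target in human cells, and cells of the other group an siRNA against UPF1 (siUPF1, 2 libraries). The treatment text that all 4 libraries share also names actinomycin D, which stops transcription, and an siRNA against UPF3A, and ties no time after the drug to a library. The study asked which genes change their expression when hESCs lose UPF1. No label describes the libraries of a group as separate cultures. The p-values below therefore measure only the spread of these libraries, which may be technical. That spread is estimated largely over all genes together, so an SE, interval or p-value does not follow the SDs of its own gene. With 2 libraries against 2, an exact permutation test of a single value cannot go below p = 0.333, and all tests below come from a model fitted across all genes.

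NMD is a surveillance pathway in which UPF1, an RNA helicase, joins terminating ribosomes and marks the transcript for decay when translation stops too early. Its best known trigger is an exon junction that lies well downstream of the stop codon, since the protein complex left on that junction by splicing is then not removed by the ribosome. Short reading frames upstream of the main one and long 3' UTRs are other known features of targets. Transcripts that are normally degraded in this way are therefore used to read out NMD activity in cells.

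The 6 genes differ in how the GENCODE 29 annotation describes their transcripts, so the ends of reading frames of 5 of them are shown first. For TBL2, UPP1 and NAT9, the frame of the main coding transcript is set beside that of 1 transcript annotated as a target of NMD, and for PANK2 and ARHGEF18 the main frame is shown alone. Each line gives the last 30 coding bases, 5′ to 3′, with the stop codon in capitals.
TBL2-201, main: ctgaagagcctgggtgccctgaagaagTGA
TBL2-209, annotated as NMD target: cttcacagccaccccagaggacttcccTAA
UPP1-201, main: ttcatcaagaagaaactgagcaaggccTGA
UPP1-202, annotated as NMD target: agtggatacctgcttcaaggcagagttTGA
NAT9-201, main: tacagagatgggtcggcagagccctgcTGA
NAT9-227, annotated as NMD target: gcaacttcagagttgttgagaattaaaTGA
PANK2-201, main: gcactccttgagctgttgaagatcccgTGA
ARHGEF18-201, main: gccagcaaagaagacgtcatcttcttcTAA

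The positions of these stop codons are on GRCh38, whereas the submitters' processing notes name hg19 and no coordinates were taken from the table. In TBL2-201, on the minus strand, the stop codon lies at chr7:73570507-73570509 in the last of 7 exons, after 447 codons, and in TBL2-209 at chr7:73573364-73573366 in exon 4, after 176 codons. TBL2-209 shares its first 423 coding bases with the main frame, neither skips nor adds a whole exon, and has its last exon junction 324 nt past the stop. In UPP1-201, on the plus strand, the stop codon lies at chr7:48108355-48108357 after 310 codons. In UPP1-202 it lies at chr7:48106937-48106939 after 36 codons, in a transcript that skips exons 5, 6 and 7 of the main one, and the last junction follows 290 nt later. For NAT9, on the minus strand, the main stop is at chr17:74771724-74771726 after 207 codons, and that of NAT9-227 is at chr17:74772350-74772352 after 156 codons, in an exon that runs across exons 5 and 6 of the main transcript, with the last junction 390 nt downstream. NAT9-227 shares only its first 77 coding bases with the main frame, and its own exon 5 overlaps no exon of the main transcript. For PANK2, on the plus strand, the main stop is at chr20:3923292-3923294 after 570 codons.

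By this annotation, TBL2 had 9 transcripts typed as NMD targets among 22, UPP1 5 among 12, PANK2 2 among 12 and NAT9 1 among 29, while ANTXR1 had 0 among 7 and ARHGEF18 0 among 5. Of 13456 coding genes tested and matched to the annotation, 41.1% had at least 1 such transcript, 3.68% had as many as UPP1 or more, and 0.699% had as many as TBL2 or more. In all of these transcripts of TBL2, NAT9 and PANK2, and in 4 of the 5 of UPP1, the last junction lay at least 50 nt past the stop. In the fifth, of UPP1, the stop lay in the last exon, 80 nt after the last junction. The main transcript of ARHGEF18 ends its frame in exon 20 of 21, at chr19:7470296-7470298 on the plus strand, and its last junction follows 17 nt later. Only 3.97% of the matched genes had any junction after the main stop. ANTXR1 had none, and its main transcript stood out by a 3' UTR of 3842 nt, longer than or equal to that of 88.1% of the matched genes, for which the median was 1077.5 nt. The other complete coding transcripts of ANTXR1 had 174 and 1025 nt. The main transcripts of TBL2 and ARHGEF18 had 2974 nt and 1958 nt, against 1177 nt in NAT9, 561 nt in PANK2 and 376 nt in UPP1. Another coding transcript of PANK2, PANK2-206, had 3664 nt. Upstream AUGs, present in 53.2% of the matched genes, numbered 2 in the main transcripts of UPP1 and ARHGEF18, 1 in that of ANTXR1 and 0 in those of TBL2, NAT9 and PANK2. The main transcript of PANK2 has a 5' UTR of only 6 nt, and PANK2-206 has 5 upstream AUGs.

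**Figure D1:**
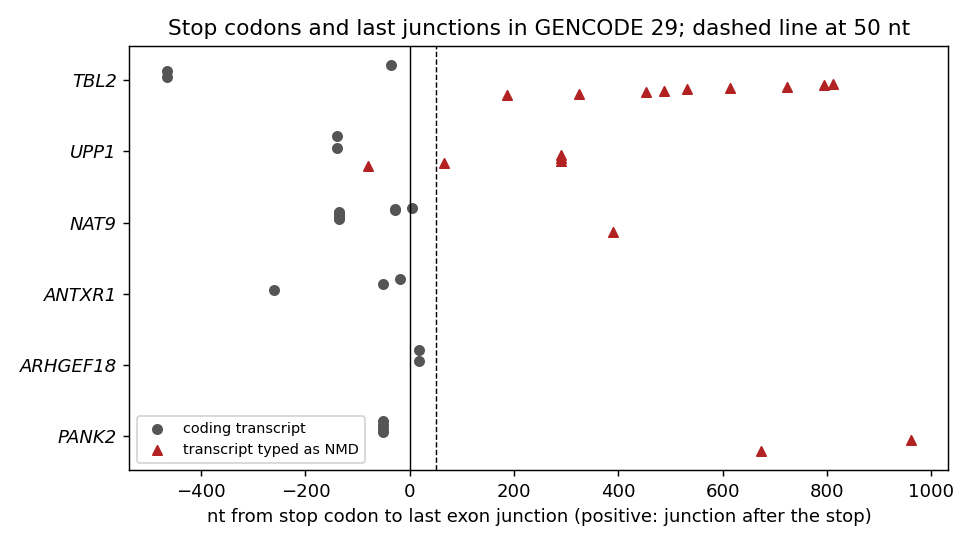
Distance in nt from the stop codon to the last exon junction (x axis) for each transcript of the 6 genes (y axis) with a complete reading frame in GENCODE 29, with grey circles for coding transcripts and red triangles for those typed as NMD targets. The 9 triangles of TBL2 lie between 187 and 811 nt, past the dashed line at 50 nt, whereas ANTXR1 and ARHGEF18 have no triangle and the coding transcripts of ARHGEF18 sit at 17 nt.

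The 4 libraries held 8887239 to 11200973 counts. The siRNA target was lower in both siUPF1 libraries, with UPF1 at 219 and 205 CPM (counts per 1000000 reads, scaled by TMM) in controls a and b and at 60.8 and 78.2 CPM in siUPF1 replicates 1 and 2. UPF1 thus stood at 28.7% of the control mean in replicate 1 and at 36.9% in replicate 2. Markers of undifferentiated hESCs were present in every library, all 8 of 8 listed, with a summed level of 1916 to 2054 CPM in the controls and 1683 to 1823 CPM in siUPF1. Of 6 fibroblast markers, COL3A1, DCN and LUM were not listed in the table and the other 3 summed to 361 CPM in both controls and to 384 and 392 CPM in siUPF1. Of 5 endoderm markers 2 were listed, at 10.7 to 12.1 against 11.4 to 15.3 CPM, and of 6 mesoderm marker symbols (T and TBXT name the same gene) only MIXL1, at 4.86 and 5.89 against 2.90 and 3.21 CPM. Trophoblast markers, 4 of 5 listed, summed to 16.4 and 17.2 against 22.2 and 23.6 CPM, and neural markers, 5 of 5, to 526 and 545 against 473 and 508 CPM. Their part in the results below was not tested. In bulk RNA, fewer cells of a type and less RNA per cell cannot be told apart.

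After UPF1 knockdown 4 of the 6 NMD targets rose, namely UPP1, NAT9, TBL2 and PANK2, and 0 fell (also 0 at an unadjusted p under 0.05, and 0 by DESeq2). In 5 of the 6 the groups did not overlap, with both siUPF1 libraries above both controls, and ANTXR1 was the exception. Groups did not overlap for 63.4% of all genes tested, and for 32.3% both siUPF1 libraries lay above both controls. The rises were between 1.20-fold and 1.79-fold. ANTXR1 and ARHGEF18 did not pass. The threshold was an adjusted p of 0.05 in edgeR's quasi-likelihood test with Benjamini-Hochberg adjustment over 15557 genes, of which 16.8% were called higher, 9.14% lower and 25.9% in either direction. The median log2 fold change was 0.32 over the 6 genes and -0.01 over all genes tested. DESeq2 called 3 of the 6 higher, against a background of 8.35% of the genes it tested, and left out PANK2. The 6 genes were chosen with earlier results of these data known, so these counts and medians are no test of them as a group.

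**Figure D2:**
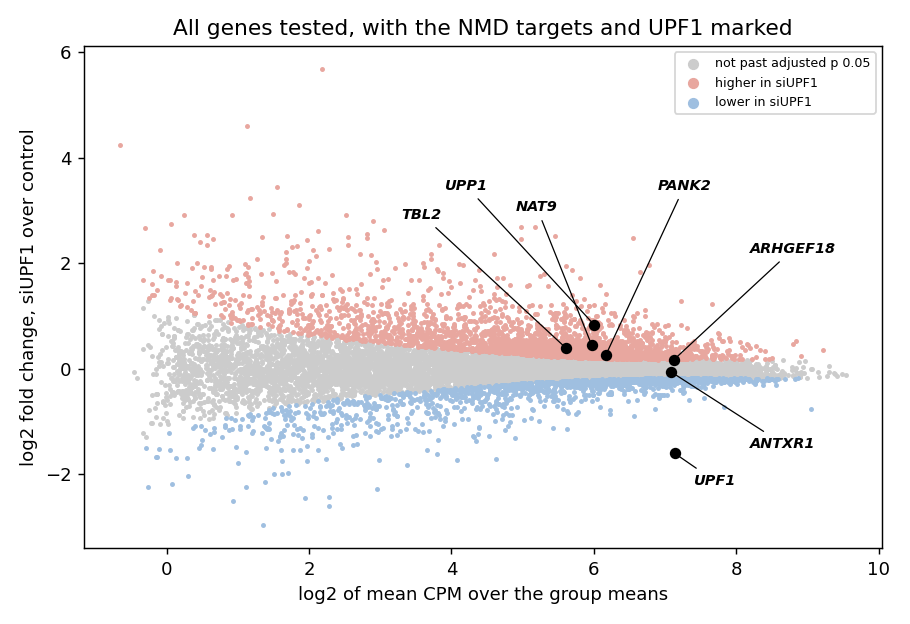
Log2 fold change of siUPF1 over control (y axis) against the log2 of the mean CPM (x axis) for the 15557 genes tested, with genes past an adjusted p of 0.05 in red where higher and in blue where lower. The 6 NMD targets and UPF1 are marked in black: UPP1 stands highest of them at 0.84, ANTXR1 lies at -0.06 and UPF1 at -1.60.

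UPP1 (chr7:48088628-48108733 on GRCh38) encodes uridine phosphorylase 1, the enzyme that splits uridine into uracil and ribose 1-phosphate. It showed 47.1 CPM in control a and 44.8 CPM in control b, against 88.0 CPM in siUPF1 replicate 1 and 76.5 CPM in replicate 2. Both siUPF1 libraries lay far above both controls, and replicate 1, the library with less UPF1, was the higher of the pair. The mean went from 45.9 ± 1.61 to 82.3 ± 8.14 CPM (± SD, 2 libraries each), a 1.79-fold rise with a 95% interval of 1.60 to 2.0. The log2 fold change of 0.84 (SE 0.08) had an adjusted p of 3.01e-22 in edgeR's quasi-likelihood test, and UPP1 ranked 571 among the 15557 genes by fold change. The deposited row of UPP1 pools 6 RefSeq transcripts, of which 2 correspond to UPP1-202, the exon-skipping transcript shown above, and 1 is noncoding. The counts are given per gene, so the share of reads from each transcript was not measured.

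NAT9 (chr17:74770547-74776367 on GRCh38) encodes a protein of the N-acetyltransferase family. It stood at 54.6 and 51.6 CPM in controls a and b and at 73.6 and 71.1 CPM in siUPF1 replicates 1 and 2. The siUPF1 libraries were close to each other and did not overlap with the controls. Its mean rose from 53.1 ± 2.17 to 72.4 ± 1.80 CPM (± SD, 2 libraries each), a 1.36-fold change with a 95% interval of 1.22 to 1.52 and an adjusted p of 9.2e-07 by edgeR's quasi-likelihood F test. NAT9 and UPP1 were the 2 genes of the 6 that kept an adjusted p under 0.05 with every library left out in turn, the highest values being 0.00863 for NAT9 without control b and 2.06e-09 for UPP1 without control b. The table pools 15 RefSeq transcripts for NAT9, 2 of them noncoding, and 0 of the 15 correspond to NAT9-227, which has no RefSeq match in the annotation.

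TBL2 (chr7:73567533-73578791 on GRCh38) encodes a WD40 repeat protein of the endoplasmic reticulum membrane. It had 39.9 CPM in control a and 44.8 CPM in control b, and 54.5 and 56.6 CPM in siUPF1 replicates 1 and 2. The controls differed from each other more than the siUPF1 libraries did, though all 4 values kept the groups apart. From 42.4 ± 3.43 to 55.5 ± 1.45 CPM (± SD, 2 libraries each), the rise was 1.31-fold with a 95% interval of 1.16 to 1.48, at an adjusted p of 0.000116 by edgeR's quasi-likelihood F test. The log2 fold change was 0.39 (SE 0.09) with all libraries. Without control a it was 0.31 and the call was lost, at an adjusted p of 0.0746 in edgeR's test. The adjusted p of TBL2 over 13 alternatives ran from 6.26e-05 to that value. TBL2, the gene with the most NMD transcripts of the 6, is represented in the table by a single RefSeq transcript, the main one. Its 9 NMD transcripts have no RefSeq match in the annotation.

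PANK2 (chr20:3888839-3929882 on GRCh38) encodes the mitochondrial pantothenate kinase, which catalyses the first step of coenzyme A synthesis. Its levels were 67.9 and 63.1 CPM in controls a and b and 81.7 and 74.9 CPM in siUPF1 replicates 1 and 2. The groups did not overlap, but control a and siUPF1 replicate 2 were only a little apart. The mean rose from 65.5 ± 3.42 to 78.3 ± 4.82 CPM (± SD, 2 libraries each), a 1.20-fold change with a 95% interval of 1.07 to 1.33 and an adjusted p of 0.00639 by edgeR's quasi-likelihood F test. This was the smallest rise of the 4, and the call was lost without control b (adjusted p = 0.254), without siUPF1 replicate 1 (0.0559) and in DESeq2 (0.136), within a range over 12 alternatives that began at 0.000732. On GRCh38, exons of PANK2 share 661 nt with exons of RNF24 on the opposite strand. RNF24 itself had means of 51.4 ± 1.96 CPM in the controls and 51.4 ± 0.921 CPM in siUPF1. Its adjusted p was 0.993 by edgeR's quasi-likelihood F test. No source used here states whether reads were counted by strand.

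ARHGEF18 (chr19:7395113-7472477 on GRCh38) encodes a guanine nucleotide exchange factor that activates the small GTPase RhoA. It had 134 and 128 CPM in controls a and b and 141 and 153 CPM in siUPF1 replicates 1 and 2. Both siUPF1 libraries lay above both controls, as they did for 32.3% of all genes tested. The mean of 131 ± 4.15 CPM in the controls and 147 ± 8.60 CPM in siUPF1 (± SD, 2 libraries each) gave a 1.12-fold difference with a 95% interval of 1.02 to 1.24. The interval is for this gene alone, and after adjustment over all genes the p was 0.0605 by edgeR's quasi-likelihood F test, so that ARHGEF18 did not pass. It passed without siUPF1 replicate 1 (adjusted p = 0.0105), and the highest of its 12 alternatives was 0.451 without control b. A longer annotated gene on the same strand, AC008878.3, shares 4761 nt of exon with ARHGEF18.

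ANTXR1 (chr2:69013178-69249327 on GRCh38) encodes a cell surface receptor that binds collagen and the protective antigen of anthrax toxin. It was at 135 and 141 CPM in controls a and b and at 129 and 137 CPM in siUPF1 replicates 1 and 2, and the groups overlapped. The means of 138 ± 4.36 and 133 ± 5.70 CPM (± SD, 2 libraries each) gave a log2 fold change of -0.06 (SE 0.07) with an adjusted p of 0.594 by edgeR's quasi-likelihood F test. The 95% interval of the ratio was 0.874 to 1.06, and that of PANK2, the smallest rise of the 4, was 1.07 to 1.33. The difference between ANTXR1 and the other targets was not tested. Over 12 alternatives the log2 fold change ran from -0.10 to -0.01, and the lowest adjusted p was 0.236.

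**Figure D3:**
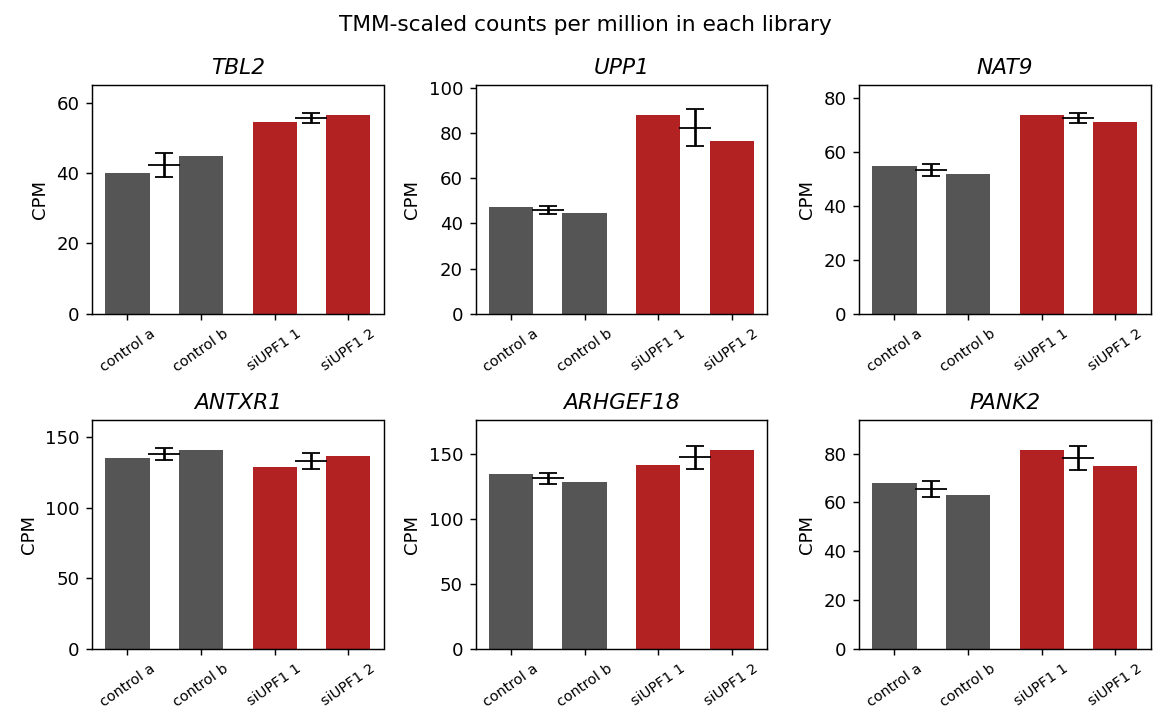
TMM-scaled CPM (y axis, from 0) of each NMD target in control a, control b and siUPF1 replicates 1 and 2 (bars), with the mean and SD of each group of 2 libraries in black. UPP1 shows the widest gap, from 45.9 to 82.3 CPM, and ANTXR1 is the 1 gene whose groups overlap.

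Per length of transcript, the 6 genes ranged from 14.0 to 35.6 CPM per kb in the controls. The length behind each row was derived from the deposited RPKM values of the siUPF1 libraries. It was 1.84 kb for PANK2, against 2280 nt in PANK2-201, and 3.03 kb for TBL2, against 4560 nt in TBL2-201. The order between genes depends on these lengths and was not computed with those of GENCODE 29. In the controls, PANK2 had 35.6 ± 1.86 CPM per kb (SD, n = 2), NAT9 27.0 ± 1.10, ANTXR1 26.7 ± 0.841, UPP1 26.6 ± 0.929 and ARHGEF18 25.5 ± 0.808, and TBL2 was lowest at 14.0 ± 1.13 CPM per kb. Neighbours in the order from NAT9 to ARHGEF18 overlapped in their libraries, while with the derived lengths PANK2 lay above and TBL2 below all of them. In siUPF1 the order changed, with UPP1 at 47.6 ± 4.71 CPM per kb, PANK2 at 42.6 ± 2.62, NAT9 at 36.7 ± 0.913, ARHGEF18 at 28.6 ± 1.67, ANTXR1 at 25.7 ± 1.10 and TBL2 at 18.3 ± 0.477 CPM per kb. The libraries of UPP1 and PANK2 overlapped there, and those of the other neighbours in the order did not. The 24 counts behind these values ranged from 353 to 1720 reads, for which counting error alone is 5.32% and 2.41%.

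The siUPF1 libraries, which differed in how much UPF1 was left, did not shift the 6 targets in 1 direction. Relative to the control mean, UPP1 stood at 192% in replicate 1 and 167% in replicate 2, PANK2 at 125% and 114%, and NAT9 at 139% and 134%. TBL2 went the other way with 129% in replicate 1 and 134% in replicate 2, as did ARHGEF18 with 108% and 117% and ANTXR1 with 93.3% and 99.1%. Replicate 1 had the lower UPF1 level, and 3 of the 6 targets were higher in it. No difference between the 2 replicates was tested.

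Genes related in family or name to the targets were read in the same fit, where 16.8% of all genes tested were called higher and 9.14% lower. Of 11 listed, UPP2 and ARHGEF28 were not listed in the table, and of the 9 tested 1 rose and 1 fell (median log2 fold change -0.06). PANK1 (-0.13, SE 0.07), PANK3 (-0.07, SE 0.07) and PANK4 (0.05, SE 0.09), the other members of the pantothenate kinase family, did not pass, with PANK2 itself at 0.26 (SE 0.08). ANTXR2, the second anthrax toxin receptor, was at 0.04 (SE 0.10). The exchange factor genes ARHGEF2 (0.08, SE 0.07) and AKAP13 (-0.06, SE 0.07) did not pass either. Among other transducin beta-like genes, TBL1X rose by 0.23 (SE 0.07, adjusted p = 0.00678), TBL1XR1 went to -0.20 (SE 0.07) and passed at an adjusted p of 0.0247 and TBL3 stood at -0.12 (SE 0.07; edgeR quasi-likelihood test for all). The TBL1X and TBL1XR1 calls were both lost without control a and without control b, that of TBL1XR1 also without siUPF1 replicate 2, and DESeq2 called 0 of the 9 in either direction, against 1 higher and 1 lower at an unadjusted p under 0.05 in edgeR. With a trend over reads per base taken out, 2 of the 9 fell. The difference between a target and its relatives was not tested.

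**Figure D4:**
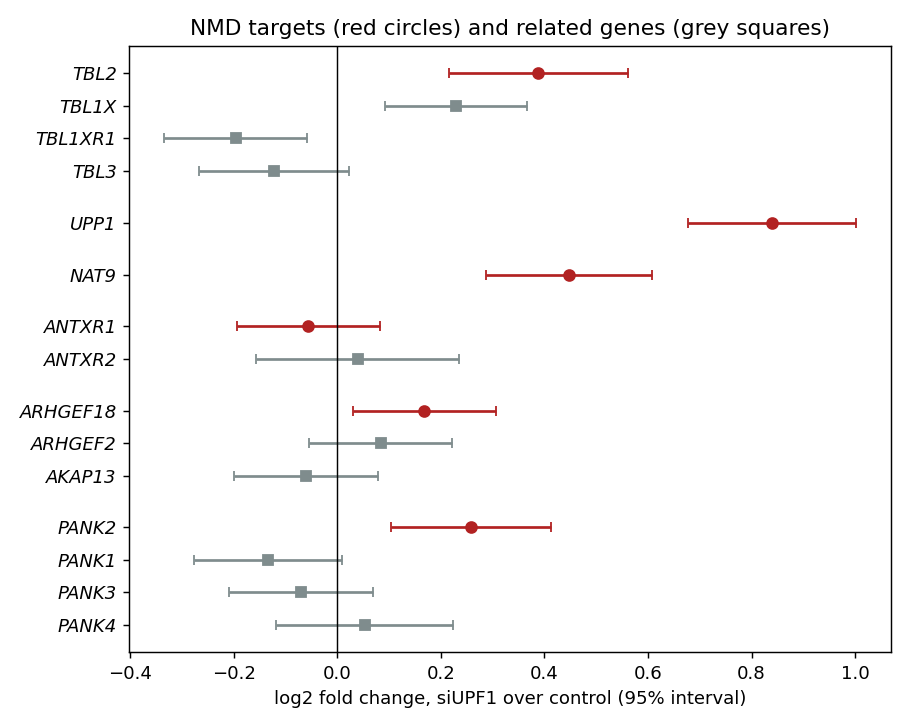
Log2 fold change of siUPF1 over control with its 95% interval (x axis) for the 6 NMD targets (red circles) and, grouped below each, genes related to it (grey squares). The intervals of UPP1, NAT9, TBL2 and PANK2 lie above 0, that of ARHGEF18 starts just above 0 at 0.03 before adjustment over all genes, and those of PANK1, PANK3, PANK4 and ANTXR2 include 0.

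The pathways around 4 of the targets were counted in the same fit, where 16.8% of all genes tested were called higher and 9.14% lower. The genes named were picked from each list for their small p. Around UPP1, in uridine and pyrimidine metabolism, 2 of 12 tested genes rose and 3 fell (median log2 fold change -0.09). The nucleoside transporter gene SLC29A2 rose by 0.41 (SE 0.07) and the uridine kinase gene UCK1 by 0.35 (SE 0.08), while CDA, cytidine deaminase, went from 10.3 ± 0.739 to 4.21 ± 0.721 CPM (± SD, 2 libraries each), or -1.28 on the log2 scale (SE 0.21). The fallers numbered 1 without control a and 1 in DESeq2. Around PANK2, 2 of 11 tested genes of coenzyme A synthesis and use rose and 0 fell, also 0 at an unadjusted p under 0.05 and 0 in DESeq2 (median -0.06). With a trend over reads per base taken out, 1 fell and the median was 0.00. PPCDC, which acts later in the same synthesis, rose from 31.8 ± 1.08 to 47.8 ± 0.783 CPM, or 0.59 on the log2 scale (SE 0.10), and the acetyl-CoA synthetase gene ACSS2 rose by 0.46 (SE 0.07).

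Around ARHGEF18, 2 of 15 tested genes of RhoA signalling rose and 0 fell, with 1 lower at an unadjusted p under 0.05 and 0 in DESeq2 (median 0.05). Of all genes tested, 16.8% were called higher and 9.14% lower. RHOB, a GTPase close to RhoA, rose from 37.2 ± 1.05 to 84.8 ± 10.9 CPM, or 1.19 on the log2 scale (SE 0.09), and the myosin light chain gene MYL9 rose by 0.24 (SE 0.08). The risers numbered 1 in DESeq2 and 1 without control a, without control b or without siUPF1 replicate 1, and 1 gene fell without that last library. The median of the 15 was -0.01 without control b and -0.00 among genes under 0.25 reads per base. Around ANTXR1, among 9 genes of its ligands and partners, COL6A3 rose by 0.37 (SE 0.08), COL6A2 fell by 0.24 on the log2 scale (SE 0.07) and COL6A1 by 0.23 (SE 0.07), all chains of collagen VI (median of the 9, 0.04). Without control a 0 of these 9 passed, and DESeq2 called 0. The COL6A3 call was also lost without siUPF1 replicate 2 and with a trend over reads per base taken out. Those of COL6A1 and COL6A2 were lost without siUPF1 replicate 1. At an unadjusted p under 0.05 in edgeR, 1 was higher and 2 were lower. The median of the 9 turned to -0.03 without control a, -0.01 without control b, -0.02 without siUPF1 replicate 1, -0.07 with a trend over reads per base taken out and -0.01 among genes under 0.25 reads per base.

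Other reported targets of NMD outside the stress response moved in both directions. Of 31 tested, 9 rose and 4 fell, with a median log2 fold change of 0.06, set against 16.8% and 9.14% of all genes. Like the 6 members, this list was chosen with earlier results of these data known, so the difference between them carries no test. RASSF1, a tumour suppressor gene, rose from 24.1 ± 2.06 to 49.3 ± 1.56 CPM (± SD, 2 libraries each), or 1.03 on the log2 scale (SE 0.10). The kinase gene MAP3K14 rose by 0.68 (SE 0.10) and the autophagy gene GABARAPL1 by 0.51 (SE 0.08). The 3 risers named for each list of this paragraph had its smallest p. The 4 fallers here were SMAD7 at -0.47 (SE 0.08), PTBP2 at -0.27 (SE 0.08), RPL3 at -0.22 (SE 0.07) and AMD1 at -0.20 (SE 0.07). The fallers numbered 1 in DESeq2. They were fewer when control a, control b or siUPF1 replicate 2 was left out in turn, and more without siUPF1 replicate 1. Of 19 NMD factor genes other than UPF1, 5 rose and 0 fell, with 3 lower at an unadjusted p under 0.05 and 0 in DESeq2 (median 0.06). Among the risers were SMG9 at 0.55 (SE 0.08), SMG1 at 0.36 (SE 0.07) and UPF3B at 0.35 (SE 0.07). The risers numbered 3 without control b, 8 with the trend over reads per base taken out and 0 among genes under 0.25 reads per base, where the median was -0.11. The fallers numbered 2 without siUPF1 replicate 1, 2 with that trend taken out, and 1 with library size alone, with no count filter or at an adjusted p of 0.1. Of 15 targets that belong to the stress response, 13 rose and 0 fell, also 0 at an unadjusted p under 0.05 and 0 in DESeq2, with a median of 0.69, among them ATF3 at 1.19 (SE 0.09), TRIB3 at 1.06 (SE 0.08) and GADD45B at 1.88 (SE 0.14). UPP1 at 0.84 was the 1 member of the 6 above that median.

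In the main fit, the 4 genes that rose were the 4 with a transcript annotated as an NMD target. The 2 that did not pass had none. This split was not kept throughout. ARHGEF18 passed at a threshold of 0.1 (adjusted p = 0.0605 in edgeR's quasi-likelihood test), and PANK2 did not pass in DESeq2 (adjusted p = 0.136). The calls of TBL2, PANK2 and ARHGEF18 also changed with certain single libraries left out. The deposited rows of TBL2, NAT9 and PANK2 pool 0 RefSeq transcripts that correspond to an annotated NMD target, and that of UPP1 pools 2. No NMD transcript of TBL2 or NAT9 has a RefSeq match in the annotation, so for these genes the 0 was fixed beforehand. Of those of PANK2, only PANK2-202 has a match. Because counts are given per gene, reads of such transcripts in shared exons may still be in these rows. The size of the rise did not follow the number of transcripts annotated as NMD targets. In log2, TBL2 with 9 rose by 0.39, UPP1 with 5 by 0.84, PANK2 with 2 by 0.26 and NAT9 with 1 by 0.45. Over all matched coding genes, 17.7% of 5524 genes with such a transcript were called higher against 16.0% of 7932 without, and 7.06% against 11.8% were called lower. The median log2 fold change was 0.01 with and -0.03 without. Genes with an upstream AUG in the main transcript were called higher in 17.7% of cases and those without in 15.5%. These shares describe the genes and carry no test.

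Across the 4 libraries, the genes closest to each target in their centred log2 CPM were named by a rule, among 13634 genes at a mean of at least 5 CPM. RORA and CYR61 lay closest to UPP1, at distances of 0.02 and 0.03, CTIF and HUNK to TBL2 (0.01 each), and SQSTM1 and VPS50 to PANK2 (0.01 and 0.02). DDX28 and SLC6A10P were closest to ANTXR1, FAM102A and MNS1 to ARHGEF18, and LOC100288778 and C8orf58 to NAT9, all within 0.02 except C8orf58. These distances are on the log2 scale and describe 4 libraries only.

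**Figure D5:**
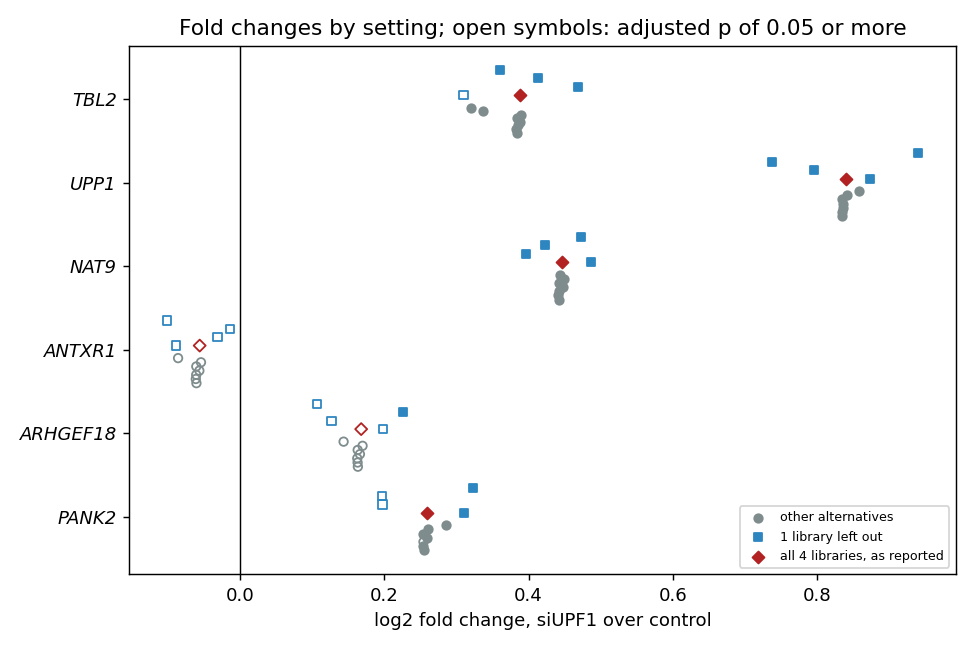
Log2 fold change of siUPF1 over control (x axis) of each NMD target as reported (red diamonds), with 1 library left out (blue squares) and under the other alternatives (grey circles), with open symbols where the adjusted p was 0.05 or more. UPP1 and NAT9 keep filled symbols throughout, TBL2 has 1 open square, PANK2 has 2 open squares and 1 open circle (at 0.25, partly covered by filled ones), and ANTXR1 has open symbols only.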

How the data were processed

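Total RNA of 4 H9 libraries was sequenced on Illumina, per the labels' protocols, and 1 table of the series was used. Read counts per gene were deposited by the authors without normalization, beside RPKM values that the authors computed. STAR, DESeq2 and hg19 are named in the submitters' processing notes. Both control count columns share 1 name, so they are called control a and b, and 2 control RPKM columns were not used. The siUPF1 RPKM values gave only transcript lengths.

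Counts were tested with edgeR 4.0.16 in R 4.3.3 (glmQLFit, glmQLFTest, two-sided, TMM, filterByExpr, which left out 385 genes), with Benjamini-Hochberg adjustment at 0.05. What edgeR terms the biological coefficient of variation was 4.47% over all genes, estimated from these libraries, whose spread may be technical. The SE was 0.07 for ACSS2 and for SLC29A2, whose siUPF1 means of 107 and 112 CPM had SDs of 17.5 and 1.37 CPM. Data for siUPF1 against control (15557 genes, 200 changed) were simulated with the spread that edgeR assigned to each gene, rather than the 4.47%. Recovery was 92% at 2-fold and 72% at 1.41-fold, and 10 unchanged genes were called. The real data called 4035 genes, so the adjusted threshold was stricter in the simulation and its recovery does not carry over directly. Recovery with a wider spread was not simulated. Alternatives were DESeq2 1.42.0, RLE factors, voom in limma 3.58.1, library size alone, other count filters, an adjusted p of 0.1, each library left out, genes under 0.25 reads per base, and the trend on reads per base removed (loess, span 0.3).

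Members and lists were chosen with earlier results of these data known. Named were the 6 members, UPF1, related genes, the 3 smallest p of each list and the 2 nearest patterns of each member (prior count 0.5). Transcript features and sequences are from GENCODE 29 on GRCh38, matched by symbol. The main transcript is the complete coding one of the best APPRIS level, then of the longest frame. The NMD transcript shown had the last junction at least 50 nt past the stop, a RefSeq match where any had one, then the longest frame. Some sequences and a gene that these rules select are not reported here.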

Additional observations from a re-analysis of the deposited data

How the results depend on the processing

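The direction of all 6 targets and of UPF1 was kept under every alternative run. UPP1, NAT9 and ANTXR1 also kept their side of the threshold. With 1 library left out, TBL2 ranged from 0.31 to 0.47, PANK2 from 0.20 to 0.32 and ARHGEF18 from 0.11 to 0.23 on the log2 scale. TBL2 lost its call without control a, and PANK2 lost its call without control b or siUPF1 replicate 1, while ARHGEF18 gained one without siUPF1 replicate 1. PANK2 also lost its call in DESeq2 (0.25), and ARHGEF18 gained one at an adjusted p of 0.1 (0.17). The targets called higher numbered 1 among genes under 0.25 reads per base, where only TBL2 was tested. Over all genes, 2613 were called higher and 1422 lower. DESeq2 called 1280 and 467, genes under 0.25 reads per base gave 1682 higher, and leaving out 1 library gave 1444 to 2764 higher and 552 to 1522 lower. Once a trend over reads per base was taken out, the split was 2157 higher and 2067 lower. The cause was not tested, except that fewer genes or libraries entered some of these fits. Of 312 values of gene lists under alternatives, 266 kept within the limits set and 46 moved. Where 1 library is left out, the spread comes from the other group, and the lone library is taken to vary as much. No paired analysis was possible because the control columns carry no replicate numbers of their own. Changes as small as those of NAT9, TBL2 and PANK2 were not simulated, so the share of them that this depth recovers is unknown.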
